A study of Homo sapiens with 2 samples.

Results

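The major histocompatibility complex (MHC) on the short arm of chromosome 6 was measured on these arrays more than once, because transcript clusters were built on 7 alternative assemblies of the region as well as on the reference chromosome. A transcript cluster is the set of probes read as 1 transcript unit. The members described here were every cluster whose identifier named chromosome 6 and an alternative haplotype, 1430 of 67524 clusters on the array. The haplotypes carry the names APD, COX, DBB, MANN, MCF, QBL and SSTO, after the cell lines they were assembled from, and held 123, 243, 225, 199, 213, 223 and 204 clusters. The haplotypes belong to the array design and say nothing of the alleles carried by the cells.

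RNA was hybridised from 2 human serous ovarian carcinoma lines, with 1 array for each line. OAW42 is sensitive to cisplatin, and OAW42-R is a resistant line derived from it by growth in rising cisplatin concentrations with recovery periods. Both were grown without drug for these arrays, in the same medium with glucose, Glutamax, pyruvate, serum and insulin. A single derived line with no replicate array limits the comparison: values have no error, no test was possible, and a difference compares these 2 arrays and not resistance in general. Differences are given as log2 values, OAW42-R minus OAW42 throughout, so that 1.00 is a 2-fold and 0.58 a 1.5-fold difference. In RNA from a whole culture, fewer expressing cells and less RNA per cell cannot be told apart.

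The MHC holds the genes that let T cells inspect a cell. Class I molecules carry peptides cut by the proteasome, which the TAP transporter moves into the endoplasmic reticulum and tapasin helps to load. Class II molecules carry peptides taken up from outside, are found mainly on professional antigen-presenting cells, and can be induced by interferon gamma in epithelial cells. HLA-DM removes the placeholder peptide from class II molecules and edits what replaces it. The region between them holds complement components, the TNF cytokine cluster, and many genes with no role in immunity.

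The promoters of the 6 genes to which the comparison of the arrays gives most room are shown first, from 250 bases before to 50 bases after the annotated start, 5′ to 3′ on the gene's own strand, as RefSeq gives them for GRCh38.p14. Capitals mark matches, on either strand, to CCAAT (a box found in class I and class II promoters), GGNNTTTCC (a form of the NF-kappaB motif) and GAAANNGAA (the core of an interferon-response element), and the run shared by HLA-DMA and HLA-DMB.
TNF, chr6:31575315-31575614, plus strand: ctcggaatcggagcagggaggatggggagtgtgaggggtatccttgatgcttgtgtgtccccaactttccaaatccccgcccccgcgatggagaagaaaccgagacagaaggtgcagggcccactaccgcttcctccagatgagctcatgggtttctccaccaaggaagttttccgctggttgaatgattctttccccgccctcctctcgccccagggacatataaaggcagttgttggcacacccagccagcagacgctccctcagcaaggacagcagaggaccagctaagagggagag
CFB, chr6:31945845-31946144, plus strand: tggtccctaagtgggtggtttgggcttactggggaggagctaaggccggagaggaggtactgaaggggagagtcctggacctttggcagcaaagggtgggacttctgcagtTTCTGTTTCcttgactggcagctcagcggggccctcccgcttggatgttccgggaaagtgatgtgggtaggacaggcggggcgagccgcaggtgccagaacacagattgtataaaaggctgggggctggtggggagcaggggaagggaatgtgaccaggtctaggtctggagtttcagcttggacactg
TAP1, chr6:32853655-32853954, minus strand: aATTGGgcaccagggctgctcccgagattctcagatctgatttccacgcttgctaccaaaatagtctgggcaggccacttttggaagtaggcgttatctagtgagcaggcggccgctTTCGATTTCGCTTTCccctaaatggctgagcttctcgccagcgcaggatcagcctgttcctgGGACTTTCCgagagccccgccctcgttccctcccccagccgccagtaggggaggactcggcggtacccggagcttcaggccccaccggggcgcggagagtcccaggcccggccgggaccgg
PSMB9, chr6:32853942-32854241, plus strand: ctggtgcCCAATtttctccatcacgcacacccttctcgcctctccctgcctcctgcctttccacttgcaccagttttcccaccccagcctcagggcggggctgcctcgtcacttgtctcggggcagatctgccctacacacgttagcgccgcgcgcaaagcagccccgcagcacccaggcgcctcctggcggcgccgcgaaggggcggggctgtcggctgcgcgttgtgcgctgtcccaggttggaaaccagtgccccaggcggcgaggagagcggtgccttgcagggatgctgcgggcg
HLA-DMA, chr6:32953048-32953347, minus strand: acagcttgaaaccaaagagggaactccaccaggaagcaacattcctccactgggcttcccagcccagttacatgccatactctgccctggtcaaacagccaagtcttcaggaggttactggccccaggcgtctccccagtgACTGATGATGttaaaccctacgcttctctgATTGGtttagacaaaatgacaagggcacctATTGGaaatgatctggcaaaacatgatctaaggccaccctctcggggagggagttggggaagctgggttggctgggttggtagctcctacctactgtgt
HLA-DMB, chr6:32940979-32941278, minus strand: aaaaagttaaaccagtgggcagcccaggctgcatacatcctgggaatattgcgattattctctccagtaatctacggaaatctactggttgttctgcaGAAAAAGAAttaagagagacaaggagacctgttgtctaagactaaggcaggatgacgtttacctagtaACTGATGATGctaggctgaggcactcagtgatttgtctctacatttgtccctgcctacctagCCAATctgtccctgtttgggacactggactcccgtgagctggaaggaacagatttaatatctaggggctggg

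The promoters of TAP1 and PSMB9 face away from each other and their windows overlap by 13 bases, so a single CCAAT box at that overlap is shown in both. TAP1 had 1 match to GGNNTTTCC and 2 overlapping matches to GAAANNGAA. HLA-DMA had 2 CCAAT matches, HLA-DMB had 1 CCAAT match and 1 match to GAAANNGAA, and CFB had 1 match to GAAANNGAA. None of the 3 motifs was found in the TNF window. Of 35116 RefSeq promoter windows of this length, 34.6% held CCAAT, 6.26% held GGNNTTTCC and 8.11% held GAAANNGAA. The longest run common to HLA-DMA and HLA-DMB on their own strands was ACTGATGATG, of 10 bases, which 20 of the 35116 windows (0.057%) contained. The run was picked because these promoters share it, so that share does not show how often promoters share a run that long. These matches describe the letters and not binding.

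Of the members, 1008 carried a single gene symbol and stood for 181 genes, all of which RefSeq places on chromosome 6. Another 138 carried several symbols in 30 combinations, and 284 had no gene name in the annotation used. A member was called above the floor when either signal reached the median (50th percentile) of its array, which was 6.34 for OAW42-R and 6.30 for OAW42. This held for 1040 members (72.7%) and for 51.6% of all clusters. Markers of ovarian epithelium were all above the floor, 9 of 9, with PAX8 at 11.67 in OAW42-R and 11.40 in OAW42. The leukocyte marker PTPRC was at 4.21 and 4.25, and MS4A1 was at 4.53 on both arrays. CD68, which is also found outside leukocytes, was at 10.47 and 10.56, and 6 of 9 leukocyte markers were above the floor.

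Across the haplotype clusters the arrays were close. The median difference was 0.00, against 0.02 over all clusters and 0.02 over the 4093 clusters of reference chromosome 6. The central 95% of the members' differences ran from -0.42 to 0.46, and over all clusters from -0.38 to 0.51. None of the 1430 members reached a 2-fold difference, where 447 of all clusters did (0.662%) and 21 on reference chromosome 6 did (0.513%). The lowest and highest differences were -0.91 and 0.93. At 1.5-fold, 13 members were higher in OAW42-R, against a background of 1.75% of all clusters, and 16 were lower, against a background of 0.739%. The 29 together were 2.03% of the members, below the 2.49% of all clusters. By direction, the higher ones were a smaller share of the members than of all clusters, and the lower ones a larger share. Above the floor defined earlier, 2.6% of members and 3.75% of all clusters were past 1.5-fold. The 29 held only 15 distinct pairs of values, 5 higher and 10 lower, since many clusters of a gene repeat the same values.

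**Figure D1:**
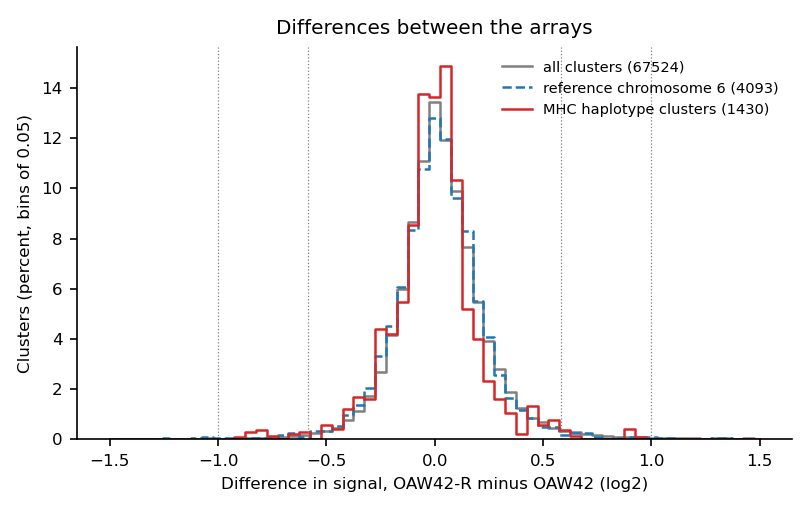
Share of clusters (percent, bins of 0.05) by their difference in signal between OAW42-R and OAW42 (log2), for the 1430 MHC haplotype clusters, the 4093 clusters of reference chromosome 6 and all 67524 clusters. Dotted lines mark 1.5-fold and 2-fold, and 153 clusters, none of them a haplotype cluster, lie outside the drawn range. The 3 curves have nearly the same centre, and no haplotype cluster lies past the 2-fold lines.

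The 7 haplotypes gave the same picture. Their median differences ran from -0.01 in COX, MCF and SSTO to 0.01 in MANN. Over the 50 genes with a cluster on every haplotype the medians ran from -0.04 to -0.02. Each haplotype held 1 to 3 clusters higher and 1 to 3 lower past 1.5-fold.

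The largest difference of a named gene was that of TNF, the inflammatory cytokine tumour necrosis factor. Its signal was 8.88 in OAW42-R and 7.99 in OAW42 on COX, DBB, MANN, MCF, QBL and SSTO, and 8.68 and 7.75 on APD. All 7 clusters were higher in OAW42-R, by 0.89 on 6 haplotypes and by 0.93 on APD, a median of 1.85-fold. The cluster on reference chromosome 6 had the same values as those 6, a difference of 0.89. These 6 copies were equal to the second decimal and are not separate measurements.

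The genes on either side of TNF did not show a difference of that size. LTA, which encodes lymphotoxin alpha, was at 6.84 to 7.01 in OAW42-R and 6.86 to 7.05 in OAW42, with differences from -0.05 to -0.02. LTB, the lymphotoxin beta chain, was at 7.73 and 7.90 in all 7 clusters, a difference of -0.17 that is 1 repeated pair of values, and its reference cluster gave -0.06. NFKBIL1, a neighbour with similarity to inhibitors of NF-kappaB, had a median difference of -0.01, and NCR3, a receptor of natural killer cells, one of -0.07. IER3, an early stress-response gene further off in RefSeq order, was at 9.94 and 10.13 in all 5 clusters. Its difference of -0.19 is again 1 repeated pair, and its reference cluster gave -0.07. Of the 8 genes listed as TNF family and inflammation, 2 were higher and 6 lower, with a median of -0.04, against 0.01 over all clusters above the floor.

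The complement genes differed among themselves. CFB encodes factor B of the alternative pathway. Its 6 clusters were at 7.31 to 7.50 in OAW42-R and 6.74 to 6.92 in OAW42, and each was higher in OAW42-R, by 0.55 to 0.58, just inside 1.5-fold. C2, the classical pathway component encoded beside it, was at 6.55 to 6.61 and 6.48 to 6.53, with differences of 0.07 and 0.08. The 1 cluster annotated with C4B alone, on MCF, was at 6.0 and 6.79, lower in OAW42-R with a difference of -0.79. The 7 clusters annotated with C4B together with other C4 symbols had a median signal of 7.05 on each array and a difference of 0.00. C4A and C4B are near-identical copies, so the lone C4B value is uncertain.

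Of the genes that supply peptides to class I molecules, TAP1, TAP2, PSMB8 and PSMB9 sit close together in the class II region. TAPBP lies further along in RefSeq order. Only TAP1 among all of these differed by more than 0.2. TAP1 encodes a subunit of the peptide transporter. Its signal was 7.88 in OAW42-R and 8.38 in OAW42 on 6 of the haplotypes and 7.93 and 8.43 on SSTO, a difference of -0.50 in all 7 clusters and in the reference cluster. TAP2, the partner subunit, was at 8.01 to 8.10 and 8.04 to 8.15, with differences from -0.05 to -0.03. PSMB9, the immunoproteasome subunit whose promoter lies back to back with that of TAP1, was at 7.04 to 7.11 in OAW42-R and 6.93 to 7.01 in OAW42, with differences from 0.10 to 0.13. TAP1 was lower and PSMB9 higher in OAW42-R in all 7 copies. Here, as for every gene, the copies were read from the same 2 arrays and are not separate measurements. PSMB8, another immunoproteasome subunit, had differences from -0.06 to -0.03. TAPBP, which encodes tapasin, was at 10.04 to 10.10 and 9.87 to 9.92, and was higher by 0.16 to 0.18 in its 4 clusters.

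The class I genes themselves were nearly level. HLA-C was at 9.45 to 9.77 in OAW42-R and 9.30 to 9.60 in OAW42, higher by 0.13 to 0.17 in its 6 clusters. HLA-B was at 8.01 to 8.20 and 8.0 to 8.21, with differences from -0.01 to 0.06 over 5 clusters. HLA-E, which presents leader peptides of other class I molecules, was at 9.28 and 9.25 in all 6 clusters. HLA-G, best known from the placenta, was higher by 0.07 to 0.09. HLA-F had differences from -0.03 to 0.01, although its level ran from 7.25 to 8.82 over 6 copies in OAW42-R. The pseudogenes HLA-H, HLA-J and HLA-L had median differences of 0.03, 0.02 and 0.15. Of the ligands of the receptor NKG2D, MICA had differences from -0.08 to -0.01 and MICB from -0.26 to -0.16. HLA genes resemble each other closely, and how far their probes separate them was not tested.

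Within the class II group the peptide editor HLA-DM stood out, because its chains differed in opposite directions. HLA-DMA, the alpha chain, was at 8.37 in OAW42-R and 7.85 in OAW42 on 5 haplotypes, at 8.61 and 8.05 on DBB, and at 8.66 and 8.09 on APD. It was higher in OAW42-R in all 7 clusters, by 0.52 to 0.57, and by 0.43 in the reference cluster. HLA-DMB, the beta chain, was at 8.46 and 8.84 on 5 haplotypes, at 8.47 and 8.85 on QBL, and at 8.58 and 8.96 on COX. It was lower in OAW42-R, with a difference of -0.38 in all 7 clusters and in the reference cluster. The genes are neighbours in RefSeq order, and their promoters share the run printed above, whose part in these differences was not tested. HLA-DOA, a chain of the inhibitor of HLA-DM, had differences from -0.10 to -0.01. HLA-DOB, its partner chain, had no cluster above the floor.

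Most class II chains were near or under the floor. HLA-DRA, the invariant alpha chain of HLA-DR and the usual marker of class II expression, had no cluster above the floor: it was at 5.44 to 5.58 in OAW42-R and 5.25 to 5.38 in OAW42. HLA-DPA1, HLA-DQA1 and HLA-DQA2 were also under it. HLA-DPB1 was at 6.51 to 6.53 and 6.75 to 6.76, lower in OAW42-R in its 7 clusters with differences of -0.24 and -0.23. HLA-DQB1 had a median difference of 0.04, HLA-DQB2 one of 0.02, and the pseudogene HLA-DPB2 one of 0.015. HLA-DRB1 had 1 cluster with that symbol alone, on SSTO, at 7.25 and 6.94. The pseudogene HLA-DRB6 had 1, on COX, at 7.23 and 6.92. Each was higher by 0.31, whereas their reference clusters gave 0.13 and 0.12. The 5 clusters naming HLA-DRB1 with HLA-DRB3 were higher by 0.07 to 0.20, with a median of 0.15. The 1 cluster naming HLA-DRB1 with HLA-DRB4 was higher by 0.15. HLA-DRB4 was higher by 0.12 on MCF and by 0.20 on MANN. Of 11 class II chain genes measured, 7 had a cluster above the floor, of which 6 were higher and 1 lower, with a median of 0.04.

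**Figure D2:**
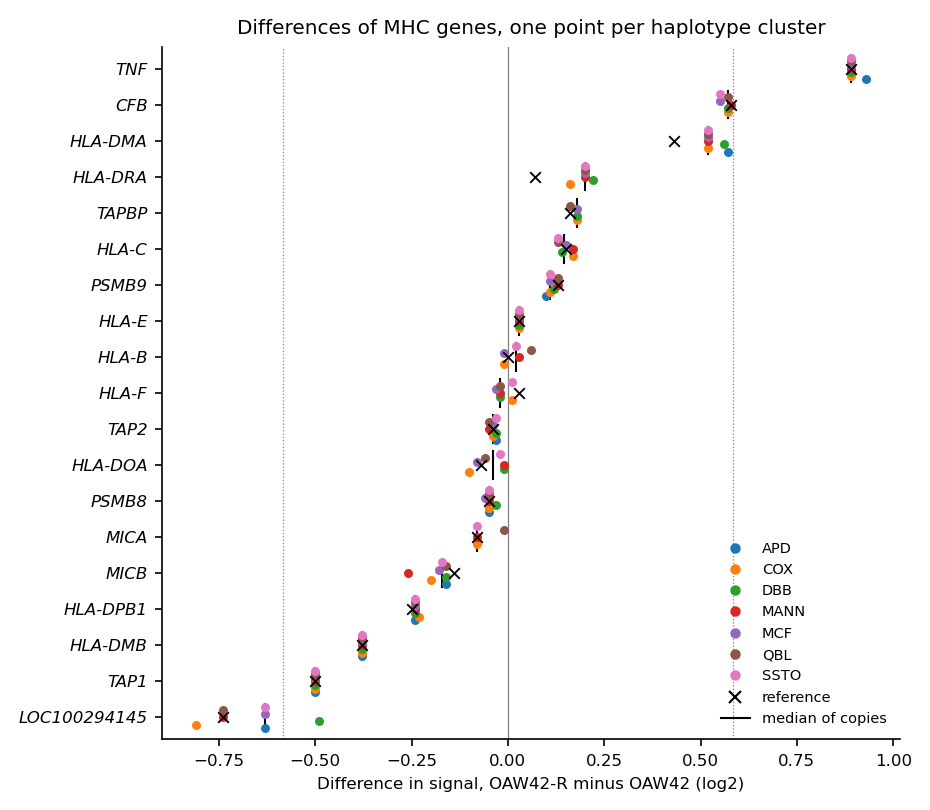
Difference in signal between OAW42-R and OAW42 (log2) for 19 genes of the MHC, with 1 point for each haplotype cluster coloured by haplotype, a bar at their median and a cross at the reference chromosome 6 cluster. Dotted lines mark 1.5-fold. TNF lies at 0.89 to 0.93 and TAP1 at -0.50 in every copy, while HLA-DMA and HLA-DMB lie on opposite sides of 0.

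LOC100294145, an uncharacterised non-coding gene that RefSeq places between PSMB9 and HLA-DMB, was lower in OAW42-R in all 7 clusters. Its signal was 7.37 and 8.0 on APD, MCF and SSTO, 7.48 and 8.22 on MANN and QBL, 7.70 and 8.51 on COX, and 7.47 and 7.96 on DBB. The difference was -0.63 on the first 3, -0.74 on the next pair, -0.81 on COX and -0.49 on DBB. The DBB copy alone stayed within 1.5-fold, and the reference cluster gave -0.74.

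Among genes from clusters with 1 symbol, the 12 lowest medians began with C4B, LOC100294145, TAP1 and HLA-DMB. Clusters with several symbols were not ranked, although those naming PPP1R18 and KIAA1949 had a lower median (-0.42) than HLA-DMB (-0.38). ABCF1, a translation-associated ATP-binding protein, was at 10.04 and 10.40 in all 6 clusters (-0.36). HSPA1A, an inducible heat shock protein, was at 9.60 to 9.62 and 9.94 to 9.97 (-0.35), and 4 clusters that name HSPA1A with its near-identical copy gave -0.26. RING1, an E3 ligase of Polycomb repressive complex 1, was at 8.30 to 8.31 and 8.64 to 8.66 (-0.35). APOM, an apolipoprotein of high-density lipoprotein, had a median difference of -0.33. TRIM27, an E3 ligase, had one of -0.28. NEU1, the lysosomal sialidase, and WDR46, a nucleolar protein, had -0.27 each, and CSNK2B, the regulatory subunit of casein kinase 2, had -0.26.

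On the higher side, SNORD117, a small nucleolar RNA, was at 10.14 and 9.71 in all 7 clusters, a difference of 0.43. The long non-coding RNA LINC00243 had a median of 0.34, but reached the floor in 1 of its 5 clusters. IFITM4P, a pseudogene of the interferon-induced transmembrane family, had differences from 0.17 to 0.30. LY6G5B, of the lymphocyte antigen 6 family, was at 9.77 to 9.80 and 9.51 to 9.56 (0.25). TCF19, a gene linked to cell proliferation, was at 8.57 to 8.61 and 8.30 to 8.37, higher by 0.24 to 0.30. HLA-F-AS1, an antisense transcript at HLA-F, was higher by 0.21 to 0.22, and the mucin-like MUCL3 by 0.17 to 0.21. With TNF, CFB, HLA-DMA, HLA-DRB1 and HLA-DRB6, these made up the 12 highest medians of genes with a symbol of their own. HLA-DRB1 and HLA-DRB6 rank there on 1 cluster each.

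By group, all 4 TRIM genes above the floor were lower, from -0.28 in TRIM27 to -0.06 in TRIM40, with a median of -0.16. TRIM26 had differences of -0.24 and -0.23 in 7 clusters and TRIM39 one of -0.09 in 6. Of 15 genes listed under transcription and chromatin, 9 were lower, 5 higher and 1 equal, with a median of -0.07. That list also holds TUBB (-0.02) and VPS52 (-0.15), which are not genes of that kind and count among the lower. EHMT2, a histone H3 lysine 9 methyltransferase, had differences from -0.19 to -0.16 and DAXX, a histone chaperone, from -0.19 to -0.17. Of 8 genes listed under keratinocyte and skin genes, 5 were higher and 2 lower, with a median of 0.10. Among them are POU5F1 (0.11), TCF19 (0.245) and SFTA2 (0.00), which are not skin genes. POU5F1 also counts in the transcription and chromatin list. CCHCR1 was higher by 0.11 to 0.13. PSORS1C2 had a median of 0.18, but its copies ran from 0.04 to 0.18, the median with equal values counted once was 0.05, and the reference cluster gave 0.02. Of 9 long non-coding genes, 6 were higher and 3 lower, with a median of 0.04. The median over all clusters above the floor was 0.01. All 13 olfactory receptor genes were below the floor, with gene medians of 3.12 to 4.69 in OAW42-R.

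Over the 140 genes with a cluster above the floor, 60 had a higher and 76 a lower median in OAW42-R, and 4 were equal. The median of their differences was -0.02. Of these genes, 121 (86.4%) were within 1.2-fold and 3 were past 1.5-fold, namely TNF, LOC100294145 and C4B. Counted by cluster and not by gene, 3.75% of all clusters above the floor were past 1.5-fold, and 2.6% of the members above it. The share within 1.2-fold was not counted over all clusters. In gene order along the region, genes with unlike differences lay side by side. TNF stood between LTA and LTB, CFB near C2, and TAP1 beside PSMB9.

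**Figure D3:**
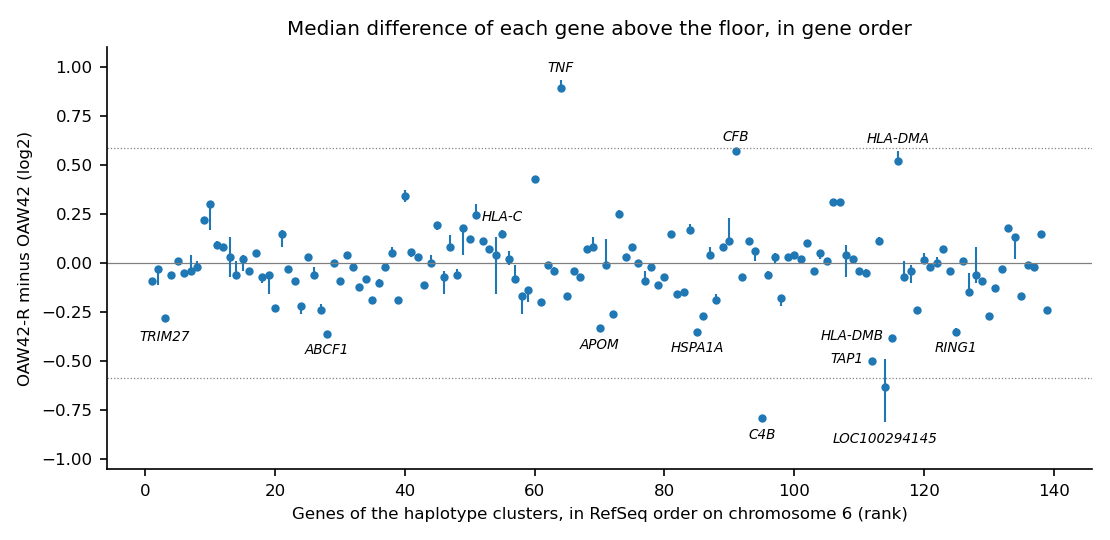
Median difference between OAW42-R and OAW42 (log2) of 139 genes with a haplotype cluster above the floor, in RefSeq order on chromosome 6, with lines from the lowest to the highest copy. Dotted lines mark 1.5-fold. HLA-DRB4 is left out because its listed position lies far from the others. TNF, CFB and HLA-DMA lie highest, and C4B, LOC100294145 and TAP1 lie lowest.

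The copies of a gene gave nearly the same difference while their signal could vary. Of the 1008 clusters with 1 symbol, 652 (64.7%) had the same pair of values as another cluster of their gene, and 228 of 965 (23.6%) the same as the reference cluster. Of 168 genes with at least 3 clusters, 23 had all clusters equal. The median range over the copies was 0.13 for the signal and 0.03 for the difference, and in 132 of the 168 the signal range was the wider. In 13 genes the signal range exceeded 1, and in 5 the range of the difference exceeded 0.3. Sign was unequal over the copies in 16 genes, of which 12 were above the floor. The medians of those 12 were at most 0.07 in size, and below the floor OR5V1 had a median of -0.26 and HCG20 one of 0.13. Of 26 genes above the floor with a median of at least 0.2 in size and a reference cluster, all 26 had the same sign there. Reference and haplotype clusters were read from the same arrays and many repeat the same values, so the shared sign is no independent support.

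The widest signal range was that of SLC44A4, a choline transporter-like protein. It was at 13.84 in OAW42-R and 13.80 in OAW42 on MANN, and at 6.79 to 6.95 and 6.73 to 6.87 on the other haplotypes. Its differences were 0.04 to 0.08 in all 7 copies. BRD2, a bromodomain protein, had a second cluster on MCF at 5.27 and 5.26, against 9.42 to 10.83 in OAW42-R for its other copies. RPS18, a ribosomal protein, was at 10.15 and 10.21 on 4 haplotypes, and at 11.23 and 11.33 in one SSTO cluster and 9.18 and 9.10 in the other. Those SSTO clusters differed by -0.10 and 0.08. Which probes make up each cluster was not analysed here, and their part in these levels was not tested.

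**Figure D4:**
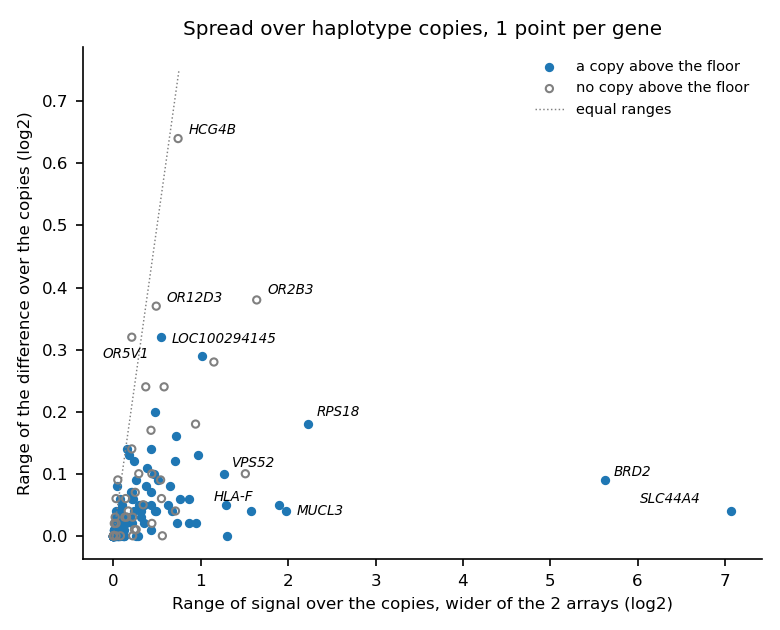
Range of the difference over the haplotype copies of a gene (log2) against the range of signal over the same copies, on whichever of the 2 arrays it was wider (log2), for 168 genes with at least 3 clusters. Filled points have a copy above the floor, and the dotted line marks equal ranges. SLC44A4 and BRD2 have the widest signal ranges with difference ranges under 0.1, and HCG4B has the widest difference range.

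The widest ranges of the difference came mostly from dim clusters. HCG4B, a non-coding gene, ran from 0.03 on SSTO to 0.67 on QBL, at signals of 4.05 to 4.79 in OAW42-R and 4.02 to 4.24 in OAW42. OR2B3, OR12D3 and OR5V1, which are olfactory receptor genes, had ranges of 0.38, 0.37 and 0.32, all below the floor. HCP5, HCG22 and HCG20 were below it as well, with ranges of 0.28, 0.24 and 0.24. Above the floor, LOC100294145 had a range of 0.32, HCG27 of 0.29 and HLA-H of 0.20.

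The clusters with several symbols held a further large difference. All 7 clusters annotated with PPP1R18 and its older name KIAA1949 were lower in OAW42-R, with differences from -0.85 to -0.40. The lowest was the SSTO copy, at 8.40 and 9.25, and the median was -0.42. Clusters naming DDX39B, BAT1 and SNORD84 gave a median of -0.23, those naming NELFE, RDBP and MIR1236 -0.24, and those naming MSH5, MSH5-SAPCD1 and SAPCD1 0.23. No value was assigned to a single gene of such a set.

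Among the 284 unnamed clusters, 146 were above the floor. Of all the members the lowest difference was that of an unnamed COX cluster, at 8.96 in OAW42-R and 9.87 in OAW42 (-0.91). Every other haplotype held an unnamed cluster of like values. Those on MANN and QBL were at 8.80 and 9.67 (-0.87), that on DBB was at 8.62 and 9.46 (-0.84), and those on APD, MCF and SSTO were at 8.64 and 9.44 (-0.80). An eighth, on COX at 6.05 and 6.64, differed by -0.59. Clusters on APD, DBB and QBL were close to it, at 5.99 and 6.57 (-0.58), just inside 1.5-fold. This COX cluster and those on APD, DBB and QBL reached the floor in OAW42 alone. On the higher side, clusters on DBB, MANN, MCF and SSTO were at 7.75 and 7.14 (0.61), those on APD and COX at 6.95 and 6.41 (0.54), and that on QBL at 6.97 and 6.46 (0.51). Another was at 6.91 and 6.45 on every haplotype and in an unnamed reference cluster (0.46). Whether clusters of like values on several haplotypes are the same transcript was not tested.

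Genes of antigen presentation outside the MHC were balanced. Of 29 measured, 28 were above the floor, 13 higher, 12 lower and 3 equal, with a median of 0.00. B2M, the light chain of class I molecules, was at 10.53 in OAW42-R and 10.44 in OAW42. NLRC5, the transactivator of class I genes, was at 7.13 and 7.18. CIITA, the transactivator of class II genes, was at 7.02 on both, and CD74, the invariant chain, at 6.80 and 6.72. The largest difference was in ERAP2, a peptide-trimming aminopeptidase, at 8.09 and 7.48 (0.61). The interferon gamma receptor chain IFNGR1 was at 7.05 and 7.38 (-0.33). NFYC, a subunit of the factor that binds CCAAT boxes, was at 8.79 and 8.50 (0.29). The other subunits of that factor were lower in OAW42-R, NFYA at 9.23 and 9.45 (-0.22) and NFYB at 8.28 and 8.44 (-0.16). RFX5, of the complex that binds class II promoters, was higher by 0.28, as was the tapasin homologue TAPBPL.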

How the data were processed

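RNA from OAW42 and OAW42-R was hybridised to whole-transcript Affymetrix arrays, 1 array for each line. The authors deposited log2 signals that they had normalised by RMA over their whole set of samples. The RMA version, annotation release and genome build are not given in the sources used here. Python 3.11.15 with pandas 2.3.3, numpy 2.4.6 and statsmodels 0.14.6 was used. Signals were taken as deposited, and the difference of each cluster, OAW42-R minus OAW42, was read from them. Gene names came from the platform annotation and were updated through RefSeq, 940 by gene identifier, 58 by symbol and 10 by older symbol, and clusters annotated with more than 1 symbol were not assigned to a gene. A gene's value was the median over its haplotype clusters. The number of arrays limits the precision, and no test was made.

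The members and lists were chosen with earlier results of these data known. Genes were named by rule: HLA, MIC and peptide supply genes, the 12 highest and 12 lowest medians above the floor, bright members of each list, the 10 widest ranges of the difference, antigen presentation genes outside the MHC, and unnamed clusters of largest difference. List members without a cluster were not analysed here. Counting and scaling steps were tested on simulated data. Alternatives were centring, quantile normalisation, loess with a span of 0.3, a floor at the 75th percentile or none, counting equal values once, the mean over clusters, and the reference cluster.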

Additional observations from a re-analysis of the deposited data

How the results depend on the processing

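With 1 array for each line no replicate could be left out. No paired analysis was possible because each line has 1 array. Of 1017 values recomputed under the alternatives, 830 of them for the 140 genes above the floor, 999 stayed within 0.1 (log2), or within 1.5 times for a count, none turned the sign of a difference past 1.5-fold, and 18 moved. Of the 29 genes above the floor with a median of at least 0.2 in size, none of 170 recomputed values had the other sign. This was largely set in advance, since every alternative used the same arrays and the scaling steps moved values by less than those medians. Centring, quantile normalisation and loess shifted members by at most 0.10 and moved no count past 1.5 times. LINC00243 fell below the floor under loess and has no value there.

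Clusters higher at 1.5-fold numbered 7 of the 13 with the floor at the 75th percentile and 5 with equal values counted once, which also left 10 of the 16 lower ones. That floor, which leaves fewer clusters, gave a median of -0.11 for APD, 0.07 for class II peptide exchange genes and 0.25 for the lymphocyte antigen 6 family, against 0.00, -0.04 and 0.02. Without a floor the heat shock median was -0.15 in place of -0.35, since a further gene entered. The reference clusters gave a complement median of 0.32 against 0.08, with C4B absent. Among gene values, 10 moved. With the reference cluster these were IFITM4P (0.17), IER3 (-0.07), LOC100294145 (-0.74), HCG27 (-0.09, against 0.04), FKBPL (-0.03, against -0.18), PSORS1C2 (0.02), LTB (-0.06), HLA-DRB1 (0.13) and HLA-DRB6 (0.12), and with equal values counted once PSORS1C2 (0.05). Signals near the floor, including most class II chains, limit what a small difference there can show.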
